A study of Schizosaccharomyces pombe with 12 samples.

Results

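Ribosome biogenesis factors are the nucleolar and nuclear proteins that cut, modify, fold and trim the precursor ribosomal RNA and put ribosomal proteins onto it. The genes described here are the fission yeast (Schizosaccharomyces pombe) probe sets with exactly 1 gene whose array symbol is of the families utp, nop, rrp, nog, noc, brx, ebp, enp, tsr, rrs, krr or kri, or is has1, gar1, bms1, fib1, cbf5, sof1 or dip2. This gave 30 probe sets of 30 genes, out of 2917 S. pombe probe sets of 2899 genes. All 30 matched the RefSeq gene table by gene ID and 29 also by symbol. The probe set called rrp12 belongs to the locus SPBC1105.01, which RefSeq does not call rrp12, so no role is given for it. RefSeq holds 80 genes with such a symbol, and 51 of them are not analysed here.

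The RNA came from 3 strains in 4 conditions, with 1 Affymetrix Yeast Genome 2.0 array for each combination, 12 in all. The slm9D strain (MC3749, slm9::ura4) and the hip1D strain (MC3725, hip1::ura4) each lack a subunit of HIRA, a histone chaperone that deposits histones outside DNA replication. The wild type (WT) was JK317. All 3 strains are h-, leu1-32 and ura4-D18, so every mutant array carries the ura4 marker as well as a deletion, and the effects of marker and deletion cannot be told apart. Log-phase cells grown in YES medium at 32 °C were taken without stress, after 1 h at 40 °C, after 1 h with 25 mM H2O2, or after 1 h of each in that order, the 40 °C step being called a priming stress and the H2O2 step a severe one. The title of the series asks what HIRA does when cells meet a mild stress. No label says that the arrays of a strain came from separate cultures, so the p-values reflect the spread among these 12 arrays alone, which may be technical. The values are fluorescence intensities from RMA, which equalises the arrays, so a change in total RNA per cell or in the number of cells cannot be seen.

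Ribosome synthesis starts with a long precursor transcribed by RNA polymerase I. The small-subunit processome binds its first part and prepares the 18S rRNA. Box C/D particles methylate the rRNA and box H/ACA particles turn uridines into pseudouridines, both guided by small nucleolar RNAs. A second set of factors assembles the large subunit around the other rRNAs, and the exosome trims ends and degrades by-products. In yeasts the genes for these factors are known to be turned down together under stress. Roles given below are best known from budding yeast (Saccharomyces cerevisiae) proteins of the same name. By role, 10 of the genes act in the small-subunit processome, 10 in large-subunit assembly, 4 in the cores of the small nucleolar particles and 3 in the exosome. The remaining 3 were grouped as other. They are has1, which acts on both subunits, tsr3, which modifies the 18S rRNA late in its maturation, and rrp12.

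All 30 probe sets were above background, taken as the 95th percentile of probe sets assigned to genes outside S. pombe (log2 3.55 to 4.03 by array), on all 12 arrays, with log2 intensities from 7.85 to 13.06. As a check of the labels, slm9 read log2 4.84 to 5.39 in slm9D, against 9.23 to 9.95 in WT, and ura4 read 11.17 to 11.82 over both mutants, against 4.16 to 5.15 in WT. The hip1 probe set read 8.30 to 8.47 in hip1D, against 9.33 to 9.83 in WT, and its place relative to the deletion was not analysed here. The median of the S. pombe probe sets was log2 9.36 on the WT array after H2O2 alone and 9.46 to 9.57 on the other arrays. Precision is limited by there being 1 array per strain and condition.

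**Figure D1:**
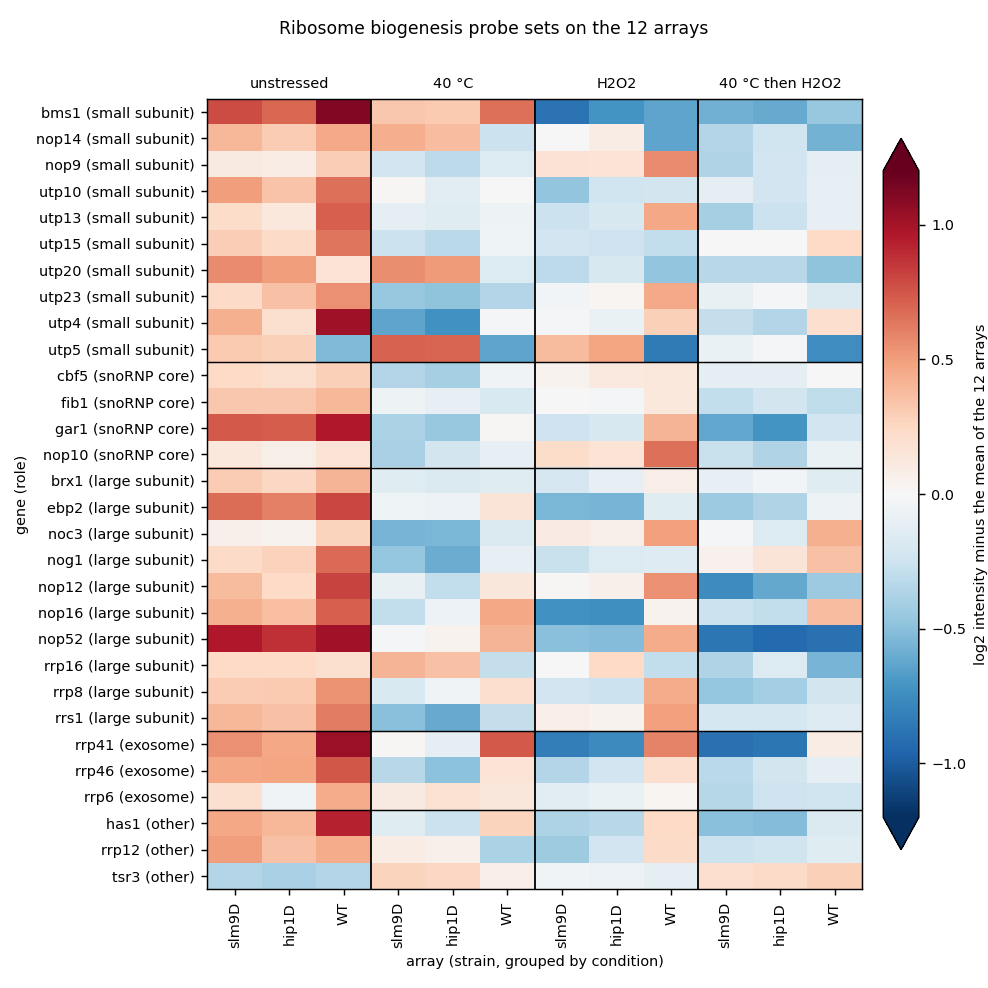
Log2 intensity of each of the 30 probe sets (rows, grouped by role) on the 12 arrays (columns, 3 strains in each of 4 conditions), minus the row's mean over the 12 arrays. Red is above that mean and blue below it. The unstressed columns are red for most genes, tsr3 shows the opposite, and utp5 differs between WT and the mutants in every condition.

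At 40 °C, 24 of the 30 genes fell and 1 rose relative to unstressed cells, averaged over the 3 strains (limma, adjusted p under 0.05). Of all 2917 probe sets, 25.7% were lower and 22.7% higher. The median log2 difference of the 30 genes was -0.49, against 0.01 over all probe sets. For 22 genes all 3 arrays at 40 °C lay below all 3 unstressed arrays, and for 1 they lay above, where 26.7% and 22.2% of all probe sets did so. By role, 7 of 10 small-subunit genes, 9 of 10 large-subunit genes, 4 of 4 small nucleolar particle genes and 2 of 3 exosome genes fell. Without the slm9D arrays 15 of the 30 were called, 14 of them lower, where 21.4% of all probe sets were called. The array holds 5 pairs of 3' and 5' control probe sets, whose difference reflects RNA integrity. At 40 °C it was higher without overlap for 2 pairs (CC338.15 at 1.19 to 1.56, against 0.78 to 0.99 in unstressed cells), lower for 1 (TFIID at 0.50 to 0.62, against 0.82 to 0.88) and overlapping for actin and SRB4. Of 7 rRNA controls 2 were lower and 5 overlapped. The part of these controls in the differences was not tested.

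Among the small nucleolar particle genes, gar1 (SPBC20F10.01), a core protein of the H/ACA pseudouridylation particle, showed the largest decrease of the 30 genes. It read log2 11.12 in slm9D, 11.04 in hip1D and 11.52 in WT at 40 °C, against 12.24, 12.23 and 12.46 in the same strains unstressed. The arrays of the conditions did not overlap, and the log2 difference was -1.08 ± 0.08 (SE, n = 3 strains, adjusted p = 1.03e-05), a 2.12-fold lower level. Here and below the SE comes from the residuals of the fit to all 12 arrays, not from the spread of 3 strains. Of these strains, slm9D and hip1D were called different for only 0.103% of all probe sets. The other H/ACA core proteins among the 30 genes fell less. On the log2 scale cbf5, the pseudouridine synthase, fell by 0.50 ± 0.06 and nop10 by 0.36 ± 0.08. fib1, the box C/D methyltransferase fibrillarin, fell by 0.46 ± 0.05.

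Of the small-subunit genes, utp4 (SPBC19F5.02C), part of the subcomplex that first joins the precursor rRNA, read log2 8.38, 8.29 and 8.99 at 40 °C in slm9D, hip1D and WT, against 9.44, 9.20 and 10.03 unstressed. The 40 °C array was the lower in each strain, with no overlap between the conditions, and the difference was -1.004 ± 0.101 (adjusted p = 6.85e-05). utp23 (SPCC18.12C), a processome protein that works with a small nucleolar RNA, read 9.37, 9.35 and 9.48 at 40 °C in slm9D, hip1D and WT, against 10.06, 10.18 and 10.38 unstressed. Its conditions did not overlap either, with a difference of -0.80 ± 0.11. nop14, utp20 and utp5 were not called, at -0.20, -0.11 and 0.23.

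In the large-subunit group, rrs1 (SPBC29A3.16), which helps bring the 5S rRNA particle into the early subunit, read log2 9.57, 9.47 and 9.78 at 40 °C in slm9D, hip1D and WT, against 10.48, 10.42 and 10.69 unstressed. Its difference was -0.92 ± 0.09 (adjusted p = 4.24e-05), with the same direction and no overlap in the 3 strains. nop52 (SPBC9B6.07), a protein needed for processing of the rRNA of the large subunit, read 9.91, 9.96 and 10.33 at 40 °C in slm9D, hip1D and WT, against 10.88, 10.79 and 10.93 unstressed. This difference, -0.80 ± 0.18 (adjusted p = 0.00524), was no longer called without hip1D (adjusted p = 0.0562) or without slm9D (adjusted p = 0.0676). The GTPase gene nog1 and ebp2 fell by 0.78 ± 0.10 and 0.68 ± 0.08 on the log2 scale.

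The only member that rose was tsr3 (SPAC1F3.04C), an enzyme that modifies 1 base of the 18S rRNA late in its maturation. It read log2 10.28, 10.26 and 10.09 at 40 °C in slm9D, hip1D and WT, against 9.67, 9.63 and 9.66 unstressed. All 3 arrays at 40 °C were above all 3 unstressed ones, and the difference was 0.56 ± 0.07 (adjusted p = 0.000337), or 1.48-fold. The DEAD-box helicase gene has1, which acts on both subunits, fell by 0.64 ± 0.08 on the log2 scale, and the exosome ring genes rrp46 and rrp41 by 0.78 ± 0.11 and 0.47 ± 0.16. rrp6, the exosome's nuclear exonuclease, was not called, at -0.05 ± 0.11.

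After H2O2 alone, 20 of the 30 genes fell and 2 rose relative to unstressed cells, where 29.2% of all probe sets were lower and 15.8% higher (limma, adjusted p under 0.05). The median log2 difference was -0.44, against -0.07 over all probe sets. For 16 genes the 3 arrays after H2O2 lay below the 3 unstressed ones and for 2 above, against 27.7% and 14.1% of all probe sets. By role, 6 of 10 small-subunit, 8 of 10 large-subunit, 2 of 4 small nucleolar particle and 2 of 3 exosome genes fell. Without the hip1D arrays 14 of the 30 genes were called and without the slm9D arrays 12, all of them lower, where 19.1% and 14.2% of all probe sets were called. All 7 rRNA controls were higher after H2O2 without overlap, the middle 28S one at log2 12.69 to 12.89, against 10.21 to 10.73 in unstressed cells. The 3' minus 5' difference was higher for 4 pairs, actin at 0.65 to 0.66, against 0.39 to 0.46, and lower for 1, TFIID. The part of these shifts in the differences was not tested.

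The gene that fell most was bms1 (SPBC31E1.06), a GTPase of the small-subunit processome. It read log2 7.95, 8.12 and 8.20 after H2O2 in slm9D, hip1D and WT, against 9.61, 9.52 and 9.95 unstressed. The difference of -1.60 ± 0.09 (adjusted p = 1.8e-05), a 3.04-fold lower level, was seen with no overlap in the 3 strains. At 40 °C the same gene fell by only 0.43 ± 0.09 on the log2 scale. Both comparisons use the same unstressed arrays.

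Among the large-subunit genes, nop52 read log2 9.42 and 9.398 after H2O2 in slm9D and hip1D and 10.37 in WT, against 10.88, 10.79 and 10.93 unstressed. It was thus lower in all 3 strains, with differences of -1.46, -1.396 and -0.56 and a mean of -1.14 ± 0.18 (adjusted p = 0.000964). ebp2 (SPAC17H9.05), an assembly factor of the early large subunit, read 9.13, 9.11 and 9.53 after H2O2, against 10.34, 10.28 and 10.48 unstressed, a difference of -1.11 ± 0.08. The values did not overlap between conditions. nop16 (SPBC1539.10), another large-subunit factor, read 8.88, 8.86 and 9.65 after H2O2, against 10.02, 9.96 and 10.32 unstressed, and fell by 0.97 ± 0.11 on the log2 scale.

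The exosome ring subunit gene rrp41 (SPAC3G9.10C) read log2 8.59, 8.66 and 10.02 after H2O2 in slm9D, hip1D and WT, against 9.97, 9.88 and 10.46 unstressed. Each strain was lower after H2O2, but the WT array after H2O2 stood above both unstressed mutant arrays, so the conditions overlapped. The mean difference was -1.01 ± 0.16 (adjusted p = 0.000964). gar1 fell by 0.82 ± 0.08, utp10 by 0.81 ± 0.09 and has1 by 0.75 ± 0.08 on the log2 scale.

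Both genes that rose after H2O2 did so by small amounts and not under every choice of arrays. tsr3 read log2 9.97, 9.94 and 9.90 after H2O2 in slm9D, hip1D and WT, against 9.67, 9.63 and 9.66 unstressed, a difference of 0.29 ± 0.07 (adjusted p = 0.0126). It was not called without hip1D (adjusted p = 0.191) or without slm9D (adjusted p = 0.199). nop10 (SPAP27G11.13C) read 12.30, 12.25 and 12.75 after H2O2, against 12.21, 12.15 and 12.25 unstressed, a mean difference of 0.23 ± 0.08 (adjusted p = 0.0455). The difference was 0.50 in WT and 0.09 in each mutant. It was not called without WT (adjusted p = 0.0972), without hip1D (0.0764), without slm9D (0.105) or without the single WT array after H2O2 (0.158). Leaving out that WT array gave 22 called genes, 1 higher and 21 lower, where 17.9% of all probe sets were higher and 29.3% lower.

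After 40 °C followed by H2O2, 26 of the 30 genes fell and 1 rose relative to unstressed cells, where 33.5% of all probe sets were lower and 23.8% higher (limma, adjusted p under 0.05). The median log2 difference was -0.63, against -0.05 over all probe sets. For 23 genes all 3 arrays lay below the unstressed ones and for 1 above, against 34.9% and 23.1% of all probe sets. By role, 9 of 10 small-subunit, 8 of 10 large-subunit, 4 of 4 small nucleolar particle and 3 of 3 exosome genes fell. Between 22 and 30 genes were called when a strain was left out, where 35.3% to 79.0% of all probe sets were. All 7 rRNA controls were again higher, the middle 28S one at log2 13.05 to 13.40 after both stresses, against 10.21 to 10.73 in unstressed cells. The 3' minus 5' difference was higher for 3 pairs, actin at 0.80 to 1.03, against 0.39 to 0.46, lower for TFIID and overlapping for URA4. Their part in the differences was not tested.

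The decrease of nop52 was the largest of any member in the 3 comparisons with unstressed cells. It read log2 9.05, 8.99 and 9.02 after both stresses in slm9D, hip1D and WT, against 10.88, 10.79 and 10.93 unstressed. The 3 strains stood close together in both conditions, and the difference was -1.84 ± 0.18 (adjusted p = 3.41e-05), a 3.59-fold lower level. bms1 read 8.25, 8.22 and 8.38 after both stresses, against 9.61, 9.52 and 9.95 unstressed, a difference of -1.41 ± 0.09. gar1 read 10.88, 10.78 and 11.27, against 12.24, 12.23 and 12.46 unstressed, a difference of -1.33 ± 0.08 (adjusted p = 2.68e-06). None of these 3 genes overlapped between the conditions in any strain.

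rrp41 read log2 8.53, 8.56 and 9.51 after both stresses in slm9D, hip1D and WT, against 9.97, 9.88 and 10.46 unstressed, and fell by 1.24 ± 0.16. nop12 (SPAC16E8.06C), an RNA-binding protein of large-subunit maturation, read 9.04, 9.19 and 9.37 after both, against 10.18, 10.04 and 10.61 unstressed, and fell by 1.08 ± 0.10. Both were lower in every strain with no overlap. tsr3 again went the other way, reading 10.22, 10.24 and 10.30 after both stresses, against 9.67, 9.63 and 9.66 unstressed, a difference of 0.60 ± 0.07 (adjusted p = 0.000134). The members not called were noc3 (-0.04), nog1 (-0.21) and utp5 (-0.30).

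**Figure D2:**
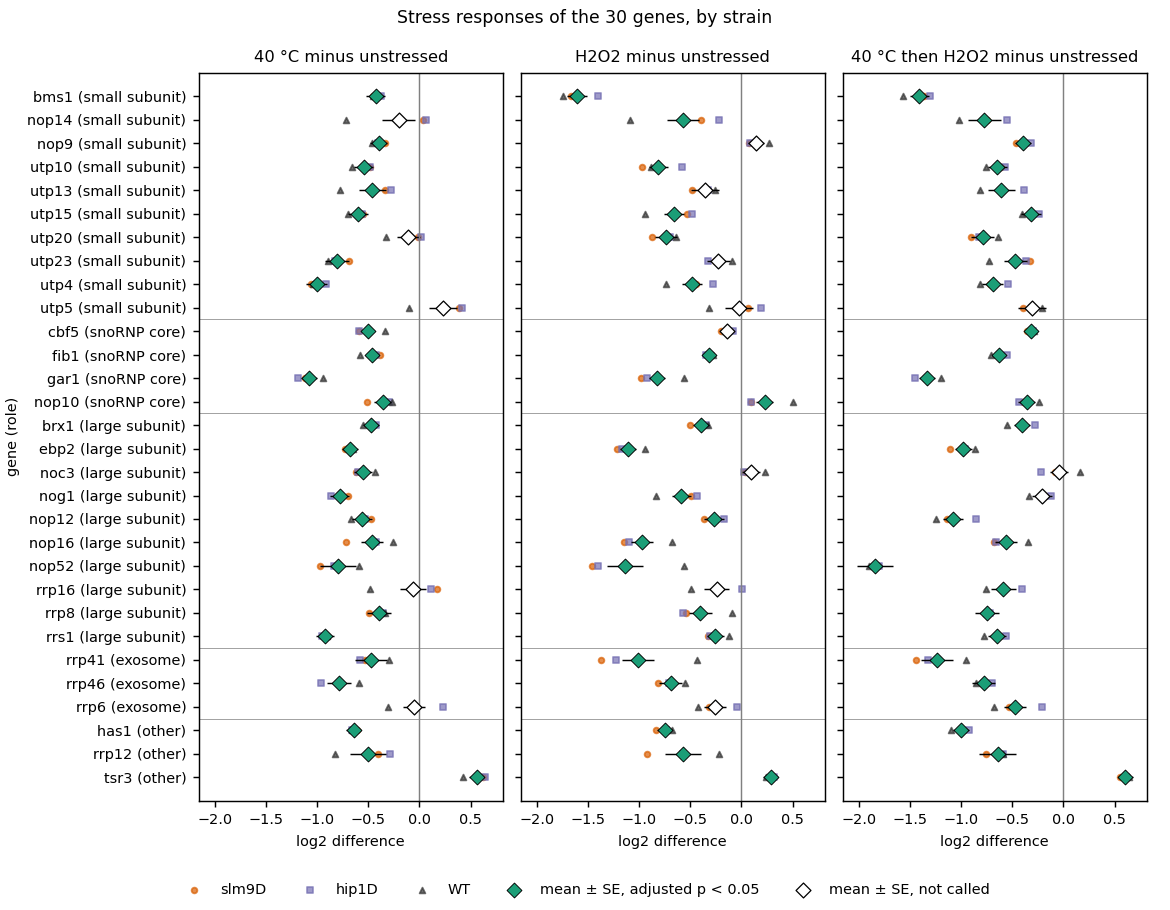
Log2 difference from unstressed cells for each of the 30 genes after 40 °C, H2O2 and both. Small symbols are the strains (slm9D, hip1D, WT), diamonds the mean over 3 strains with its SE from the fit, filled where the adjusted p was under 0.05. Most diamonds lie left of 0 in all 3 panels, tsr3 lies right of 0 in all 3, and nop52 reaches -1.84 after both stresses.

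The 3 comparisons share their unstressed arrays, so their agreement is not independent. With that said, 17 genes were called lower in all 3, tsr3 was called higher in all 3, and utp5 was called in none. cbf5, nop9, utp13 and utp23 were called lower at 40 °C and after both stresses but not after H2O2 alone, nop14 and utp20 after H2O2 and after both but not at 40 °C, and rrp6 and rrp16 only after both. noc3 was called lower only at 40 °C, and nog1 at 40 °C and after H2O2. nop10 was the only gene called in opposite directions, lower at 40 °C and after both, higher after H2O2. Mean levels were highest in unstressed cells for 25 of the 30 genes. They were lowest after both stresses for 14, at 40 °C for 10, after H2O2 for 5 and in unstressed cells for 1. The share of all probe sets with each of these patterns and orders was not counted, so these counts only describe the 30 genes.

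Cells that had been at 40 °C before H2O2 were next compared with cells given H2O2 alone. Here 9 of the 30 genes were lower and 4 higher, against 17.8% and 18.0% of all probe sets, with a median of -0.21, against 0.04 over all. nop12 showed the largest difference. Its log2 level was 9.04, 9.19 and 9.37 in slm9D, hip1D and WT after both stresses, against 9.82, 9.86 and 10.35 after H2O2 alone (-0.81 ± 0.10, adjusted p = 0.000623). nop10 (-0.59 ± 0.08), nop9 (-0.54 ± 0.08) and gar1 (-0.51 ± 0.08) were lower as well. nop52 had a mean of -0.71 ± 0.18, but -0.37 in slm9D and -0.41 in hip1D, against -1.34 in WT, so that mean rests mostly on the WT arrays. The genes higher after both stresses than after H2O2 alone were nop16 (0.41 ± 0.11), nog1 (0.38 ± 0.10), utp15 (0.34 ± 0.10) and tsr3 (0.32 ± 0.07). The count moved with the arrays used, at 23 genes without WT, 5 without hip1D and 3 without slm9D, and so did the share of all probe sets called, at 62.6%, 11.3% and 7.03% in the same order.

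Cells given both stresses were then compared with cells held at 40 °C alone. They differed by H2O2 and by the further 1 h after the 40 °C step. No array had that hour without H2O2, so the effects of H2O2 and of time cannot be told apart. There were 14 genes lower and 7 higher, against 27.5% and 18.2% of all probe sets, with a median of -0.14, against -0.06 over all. nop52 (-1.05 ± 0.18), bms1 (-0.98 ± 0.09), rrp41 (-0.77 ± 0.16) and utp20 (-0.68 ± 0.11) were the lowest. nog1 read log2 10.31, 10.41 and 10.60 in slm9D, hip1D and WT after both stresses, against 9.79, 9.66 and 10.16 at 40 °C (0.57 ± 0.10, adjusted p = 0.00146). It was therefore higher in every strain, as were noc3 (0.51 ± 0.09), utp23 (0.33 ± 0.11) and utp4 (0.31 ± 0.10). Without hip1D 6 genes were called and without slm9D 4, where 18.1% and 13.5% of all probe sets were.

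Related genes outside the 30 were counted in the same fits, from lists given by gene symbol. A list of 31 other ribosome biogenesis genes had 24 lower and 2 higher at 40 °C (median log2 difference -0.48), 22 lower and 1 higher after H2O2 (-0.48), and 26 lower and 0 higher after both (-0.56). The genes called higher at 40 °C were dim1 (SPCC16A11.05C, 0.41 ± 0.06) and lsg1 (SPCC4B3.08, 0.55 ± 0.11). In fission yeast these symbols belong to a splicing protein and to a kinase subunit also called ctk3, not to the budding yeast biogenesis factors of the same names. Without them, a choice made after their values were seen, 29 genes had 24 lower and 0 higher at 40 °C. H2O2 alone gave 21 lower and 1 higher, and both stresses gave 25 lower and 0 higher. gar2, the nucleolin-like protein of fission yeast, had differences of -2.13 ± 0.11 at 40 °C and -0.51 ± 0.11 after H2O2, both called. dbp3, a DEAD-box helicase gene, had -1.88 ± 0.11 at 40 °C and -2.21 ± 0.11 after both stresses. Of the 15 genes of RNA polymerase I and its factors, 9 were lower at 40 °C, 6 after H2O2 and 9 after both, and 0 were higher. Their median log2 differences were -0.44, -0.18 and -0.48 in the same order. Among them nuc1, the largest subunit, had -0.81 ± 0.07 at 40 °C, and rpa34 -1.54 ± 0.11 after both. Beside both lists, 25.7%, 29.2% and 33.5% of all probe sets were lower and 22.7%, 15.8% and 23.8% higher, in the same order.

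Ribosomal protein genes, 120 probe sets, were called lower for 81 and higher for 0 at 40 °C, but with a median of only -0.12. After H2O2 22 were lower and 17 higher (median -0.01), and after both stresses 67 and 2 (median -0.09). The shares of all probe sets lower and higher were 25.7% and 22.7%, 29.2% and 15.8%, and 33.5% and 23.8%, in the same order. The corresponding medians of the 30 biogenesis factors were -0.49, -0.44 and -0.63. These are descriptions, and the difference between the lists was not tested. Many ribosomal protein genes come as near-identical pairs, whose probe sets may share signal.

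**Figure D3:**
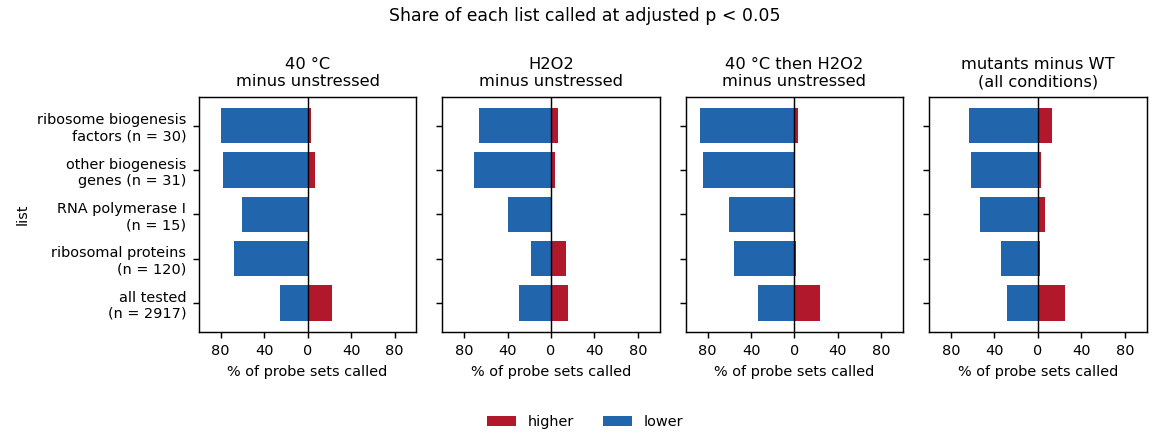
Percent of the probe sets of each list called lower (blue, to the left) and higher (red, to the right) at an adjusted p under 0.05, for 3 stress comparisons and for mutants minus WT over all conditions. The 30 biogenesis factors and the 31 other biogenesis genes have mostly blue bars in each panel, while all 2917 probe sets have blue and red bars of like length for 40 °C and for mutants.

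Across all conditions, 19 of the 30 genes were lower and 4 higher in the HIRA mutants than in WT, where 28.7% of all probe sets were lower and 25.3% higher (limma, 8 mutant and 4 WT arrays, adjusted p under 0.05). The median log2 difference was -0.25, against -0.02 over all probe sets. By role, 5 of 10 small-subunit genes were lower and 3 higher, 8 of 10 large-subunit genes lower and 1 higher, 3 of 4 small nucleolar particle genes lower and 2 of 3 exosome genes lower. Both mutant arrays stood below the WT array in all 4 conditions for 17 genes, and above it for 3, where 24.3% and 20.8% of all probe sets did so. Without hip1D 10 genes were called and without slm9D 11, where 29.8% and 30.4% of all probe sets were. When condition was not a term of the fit, 1 gene was called, utp5, and 13.2% of all probe sets. The background level was log2 3.55 to 3.80 on the mutant arrays and 3.73 to 4.03 on the WT arrays, higher in WT in each condition. Of the 7 rRNA controls, 7 were higher in both mutants when unstressed, 6 at 40 °C, 4 after H2O2 and 2 after both stresses. Those lower in both mutants numbered 0, 0, 3 and 4 in the same order. The 3' probe set of 28S rRNA was higher in both in all 4 conditions, at log2 13.28 and 13.31 in slm9D and hip1D unstressed, against 12.19 in WT, and at 13.28 and 13.38 at 40 °C, against 11.62 in WT. The 3' minus 5' difference was higher in both mutants for 4 of 5 pairs unstressed, 3 at 40 °C, 3 after H2O2 and 1 after both. It was lower in both mutants for 0, 1, 2 and 3 pairs in the same order. The part of the background and of these controls in the differences was not tested.

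rrp41 was the gene with the lowest difference. In slm9D it read log2 9.97, 9.44, 8.59 and 8.53 unstressed, at 40 °C, after H2O2 and after both. In hip1D the values were 9.88, 9.30, 8.66 and 8.56, and in WT 10.46, 10.16, 10.02 and 9.51. Each mutant array was below the WT array of its condition, with a mean difference of -0.92 ± 0.12 (adjusted p = 0.000232), a 1.89-fold lower level. Of all 2917 probe sets it had the 25th lowest difference. Its partner in the exosome ring, rrp46, was 0.38 log2 units lower (-0.38 ± 0.09), and rrp6 was not called (-0.14 ± 0.08).

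The large-subunit gene nop16 read log2 10.02, 9.30, 8.88 and 9.34 in slm9D over the 4 conditions in the same order, 9.96, 9.53, 8.86 and 9.30 in hip1D, and 10.32, 10.06, 9.65 and 9.97 in WT. Both mutants were lower in each condition, and the mean difference was -0.60 ± 0.08 (adjusted p = 0.000297). utp4 read 9.44, 8.38, 8.995 and 8.72 in slm9D, 9.20, 8.29, 8.93 and 8.66 in hip1D, and 10.03, 8.99, 9.30 and 9.21 in WT, a difference of -0.56 ± 0.08. It too was lower in every mutant array than in WT of the same condition. The helicase gene has1 (SPAC1F7.02C) read 10.49, 9.88, 9.65 and 9.51 in slm9D, 10.42, 9.76, 9.69 and 9.50 in hip1D, and 10.94, 10.29, 10.26 and 9.85 in WT, a difference of -0.47 ± 0.06. gar1 read 12.24, 11.12, 11.25 and 10.88 in slm9D, 12.23, 11.04, 11.31 and 10.78 in hip1D, and 12.46, 11.52, 11.91 and 11.27 in WT, a difference of -0.43 ± 0.06. For both of these genes the mutants lay below WT in all 4 conditions.

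The gene that differed most in the other direction was utp5 (SPAC20H4.01), a processome protein. It read log2 10.54, 10.93, 10.61 and 10.15 in slm9D, 10.51, 10.93, 10.69 and 10.20 in hip1D, and 9.69, 9.59, 9.38 and 9.48 in WT, unstressed, at 40 °C, after H2O2 and after both. Every mutant array was above every WT array, and the difference was 1.03 ± 0.10 (adjusted p = 5.29e-05), or 2.05-fold. In budding yeast Utp5 sits in 1 subcomplex with Utp4, Utp10 and Utp15, a grouping taken up here after the values were seen. Of these, utp4 and utp15 were lower in the mutants (-0.56 ± 0.08 and -0.20 ± 0.07) and utp10 was not called (-0.13 ± 0.07).

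The remaining genes higher in the mutants were nop14 and utp20 of the small-subunit processome and the large-subunit gene rrp16, also called nop53. utp20 (SPBC56F2.04) read log2 11.11, 11.10, 10.24 and 10.21 in slm9D, 11.05, 11.06, 10.35 and 10.22 in hip1D, and 10.71, 10.39, 10.07 and 10.07 in WT (0.36 ± 0.08, adjusted p = 0.00534). It was higher in both mutants in each condition but was not called without hip1D (adjusted p = 0.0558). nop14 (SPBC3F6.04C) read 10.02, 10.06, 9.62 and 9.27 in slm9D, 9.93, 9.995, 9.71 and 9.38 in hip1D, and 10.08, 9.36, 8.98 and 9.05 in WT (0.38 ± 0.12, adjusted p = 0.024). The mutants were below WT when unstressed and above it in the other 3 conditions, and the call was lost without hip1D (adjusted p = 0.101), without slm9D (0.108) or without the WT array after H2O2 (0.0904). rrp16 (SPAC22F8.09) read 10.66, 10.84, 10.43 and 10.06 in slm9D, 10.66, 10.78, 10.66 and 10.26 in hip1D, and 10.62, 10.14, 10.13 and 9.87 in WT (0.35 ± 0.09, adjusted p = 0.0104). Its smallest difference was in unstressed cells, and it was not called without hip1D (adjusted p = 0.098).

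Between the deletion strains, slm9D minus hip1D, 0 of the 30 genes were called by limma and 0 had an unadjusted p under 0.05, where 0.103% and 0.206% of all probe sets did. The median of the absolute difference between their arrays of 1 condition was 0.05 to 0.07 on the log2 scale. The largest was 0.24, for rrp16 after H2O2.

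**Figure D4:**
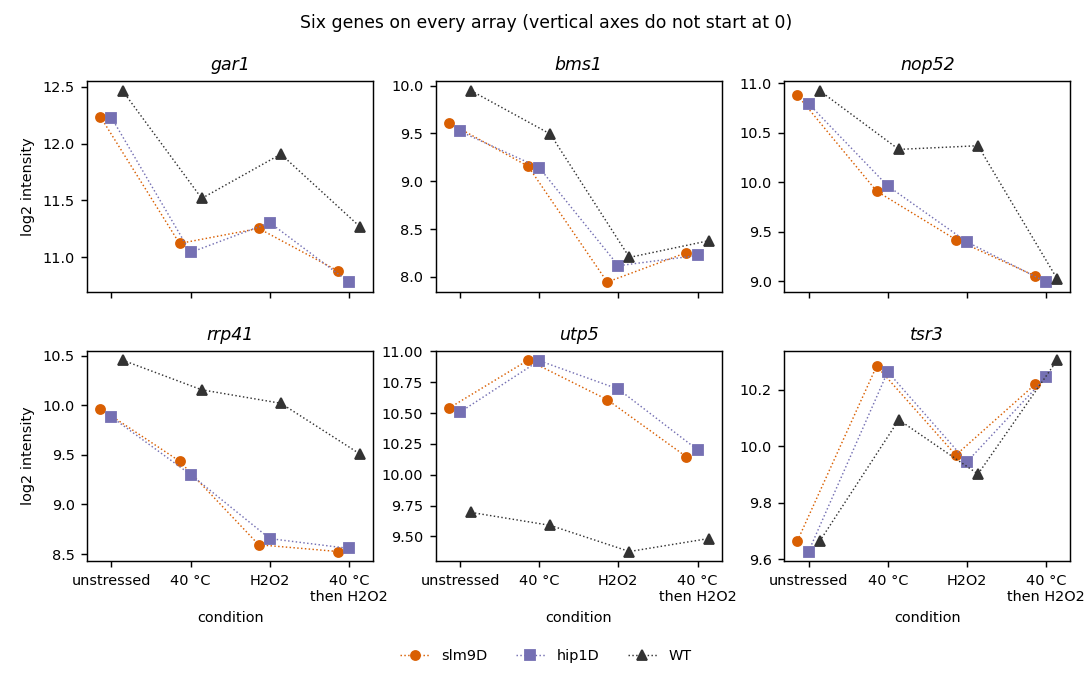
Log2 intensity of gar1, bms1, nop52, rrp41, utp5 and tsr3 in each strain and condition, 1 array per point, with dotted lines joining the arrays of a strain. The slm9D and hip1D points lie close together throughout, while WT stands above them for gar1 and rrp41 and below them for utp5 in all 4 conditions.

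Within single conditions both mutant arrays were set against the lone WT array, on the assumption that WT arrays have the same spread as mutant ones. In unstressed cells 17 of the 30 genes were lower and 2 higher in the mutants, against 34.6% and 26.0% of all probe sets. The median was -0.23, against -0.04 over all. The largest decreases were utp4 (-0.71 ± 0.09), utp13 (-0.55 ± 0.08) and rrp41 (-0.53 ± 0.08), and utp5 and utp20 were higher (0.83 ± 0.07 and 0.37 ± 0.07). At 40 °C 17 were lower and 7 higher, against 34.1% and 29.3% of all, with a median of -0.23, against -0.03. There utp5 was 1.34 ± 0.07 higher, and utp20, nop14 and rrp16 were 0.70 ± 0.07, 0.67 ± 0.08 and 0.67 ± 0.09 higher.

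After H2O2 alone the mutants were lower for 19 genes and higher for 4, against 37.2% and 38.0% of all probe sets, with a median of -0.40, against -0.01. These values rest on the WT array with the lowest overall median. rrp41 was 1.40 log2 units lower in the mutants (-1.40 ± 0.08, adjusted p = 3.11e-10), the 13th lowest of 2917 probe sets. nop52 (-0.96 ± 0.07), nop16 (-0.78 ± 0.09), utp13 (-0.69 ± 0.08) and the methyltransferase gene rrp8 (-0.69 ± 0.08) followed, and utp5 was 1.27 ± 0.07 higher. After both stresses 15 genes were lower and 3 higher, against 29.6% and 29.5% of all. They were 10 and 4 when arrays were shifted until the probe sets outside S. pombe had 1 common median, where 667 of all 2917 probe sets were lower and 992 higher. The median was -0.15, against -0.01 over all. The lowest were rrp41 (-0.97 ± 0.08) and nop16 (-0.65 ± 0.09), and utp5 was 0.69 ± 0.07 higher. nop52, which differed after H2O2 alone, was at 0.00 ± 0.07 here.

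**Figure D5:**
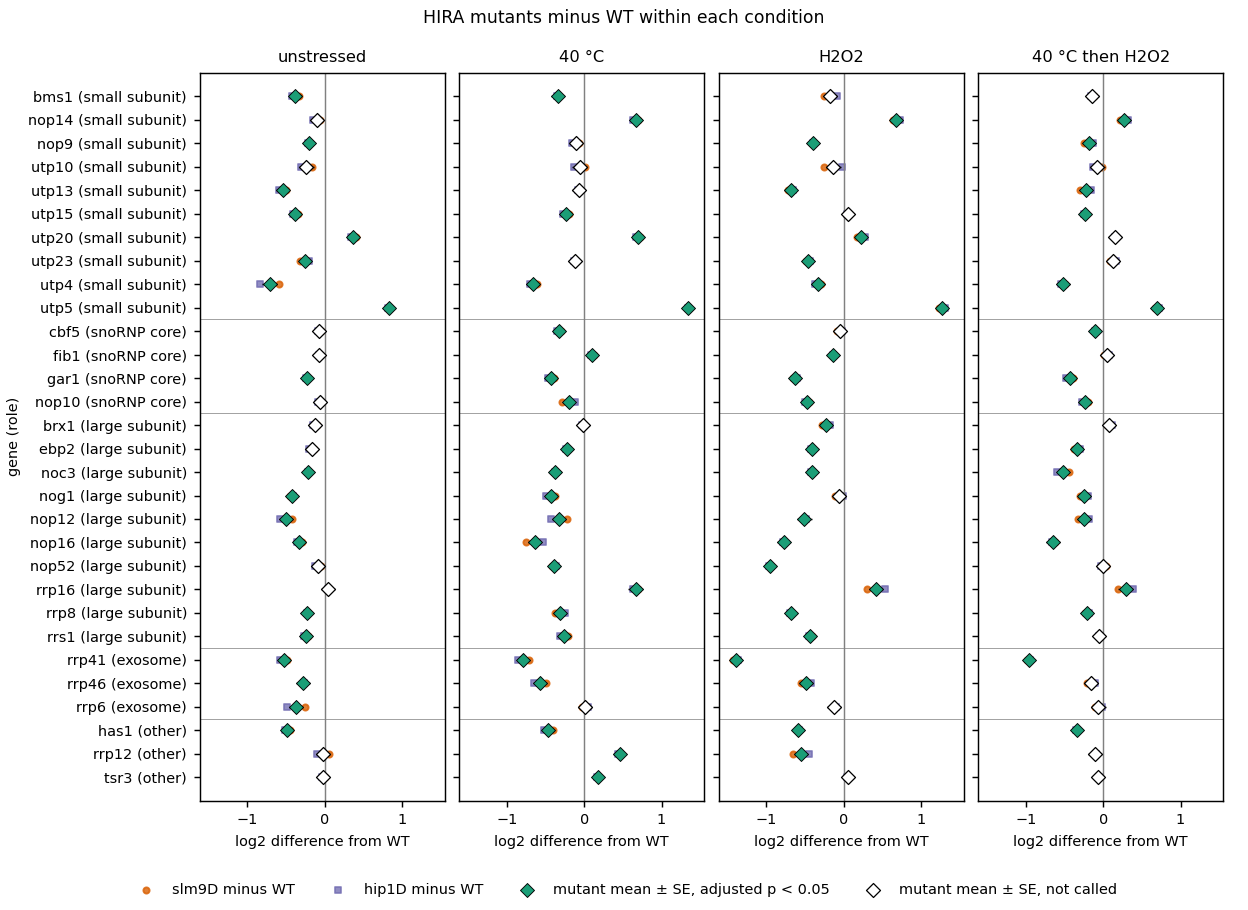
Log2 difference of the HIRA mutants from WT for each of the 30 genes in each condition. Small symbols are slm9D and hip1D minus the WT array, diamonds their mean with its SE from the fit, filled where the adjusted p was under 0.05. rrp41 lies left of 0 and utp5 right of 0 in every panel, and nop52 reaches -0.96 after H2O2 but 0.00 after both stresses.

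Whether the mutants responded to stress by a different amount from WT was tested on the difference of the responses itself. At 40 °C 11 genes differed, 8 with a higher and 3 with a lower response in the mutants, against 22.7% and 18.0% of all probe sets. The median difference was 0.07, against 0.02 over all. When the S. pombe probe sets alone were quantile normalized it was -0.05 with 7 higher and 7 lower, against 19.3% and 21.4% of all. With the values as deposited, the median difference by role was 0.16 for the 10 small-subunit genes and -0.04 for the 10 large-subunit genes. It was -0.17 for the 4 small nucleolar particle genes, -0.255 for the 3 exosome genes and 0.20 for the 3 others. The difference between roles was not tested. nop14 had a mean log2 response of 0.05 in the mutants (0.04 in slm9D and 0.07 in hip1D) and -0.72 in WT, a difference of 0.77 ± 0.11 (adjusted p = 2.21e-05). rrp16 had 0.15 in the mutants and -0.48 in WT, a difference of 0.62 ± 0.11. utp5 had 0.40 in the mutants and -0.11 in WT, a difference of 0.51 ± 0.10. In all 3, the WT array was lower at 40 °C than unstressed and both mutant arrays were higher.

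After H2O2 13 genes differed, 6 with a higher and 7 with a lower response in the mutants, against 31.0% and 16.3% of all probe sets. The median difference was -0.12, against 0.05 over all, and with the S. pombe probe sets alone quantile normalized, 1 gene was higher and 9 lower, against 17.8% and 19.2% of all. nop52 had a log2 response of -1.43 in the mutants and -0.56 in WT, a difference of -0.87 ± 0.10 (adjusted p = 1.37e-06), the 13th lowest of 2917. rrp41 had -1.30 in the mutants and -0.43 in WT, a difference of -0.86 ± 0.11. nop14 went the other way, with -0.31 in the mutants and -1.09 in WT, a difference of 0.78 ± 0.11. These differences also use the single WT array after H2O2.

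After both stresses 7 genes differed, 3 higher and 4 lower, against 26.8% and 19.2% of all probe sets. The median difference was 0.12, against 0.03 over all. rrp41 had a log2 response of -1.38 in the mutants and -0.95 in WT, utp23 -0.34 in the mutants and -0.72 in WT, and nop14 -0.65 in the mutants and -1.02 in WT. nop14 was not called when the S. pombe probe sets alone were quantile normalized (adjusted p = 0.0645). For nop52 the response was -1.81 in the mutants and -1.90 in WT, a difference of 0.09 ± 0.10 that was not called. The strains thus read alike for nop52 after both stresses, and the mutants were the lower after H2O2 alone.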

How the data were processed

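Total RNA of 12 fission yeast samples was labelled and hybridised, 1 array each. The authors made the deposited intensity values with RMA in Affymetrix Expression Console 1.1 (source: the submitters' processing notes). They span 2.9 to 20293 without a log, and log2 was taken here. RMA evens out totals between arrays and compresses low signals. Of 10928 probe sets, 5538 have a gene in GEO's annotation of the array. Of these, 2917 had exactly 1 S. pombe gene in RefSeq, 2914 by gene ID and 3 by symbol, 20 shared by several genes were left out, and 2601 of genes outside it gave the background. All value columns were used (0 left out).

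Tests were limma 3.58.1 in R 4.3.3 (lmFit, then eBayes with a trend on mean intensity). P-values were adjusted by Benjamini-Hochberg over all 2917 probe sets and called under 0.05. Strain plus condition (6 residual degrees of freedom) gave the stress comparisons, where strain is the block, and the comparisons of strains over all conditions, where condition is. A mean for mutants and for WT in each condition gave the single-condition comparisons (4 residual degrees of freedom). Adding slm9D minus hip1D to that fit gave the differences in response (3 residual degrees of freedom). The fits were run on simulated data with independent noise on each array, which cannot test the spread between cultures. The genes, lists and tests were chosen with earlier results of these data known. Values on every array are given for up to 5 called genes at either end of each of 4 comparisons that moved the same way in all strains, for called genes against the common direction, and for up to 3 per difference in response. acr1 was dropped from the RNA polymerase I list, its role being uncertain. Alternatives were leaving out each strain or condition, no block, no trend, no dim probe sets, other scalings and, added after seeing the data, leaving out the WT array after H2O2. No genome build is named for the array, so no coordinates are given, and no sequences were used here. A planned promoter search was not run.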

Additional observations from a re-analysis of the deposited data

Results flagged for a closer look

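The responses of the mutants and WT were compared by a test of the difference of the responses itself (limma, adjusted p under 0.05), and the results past the threshold are listed here. At 40 °C 11 of the 30 genes differed, where 40.7% of all probe sets did, and the largest log2 differences, mutants minus WT, were 0.77 for nop14, 0.62 for rrp16 and 0.51 for utp5. After H2O2 13 genes differed, where 47.3% of all probe sets did, with -0.87 for nop52, -0.86 for rrp41 and 0.78 for nop14. After 40 °C and then H2O2 7 genes differed, where 46.0% of all probe sets did, with -0.43 for rrp41, 0.38 for utp23 and 0.37 for nop14. nop14 was among the largest differences in all 3 responses, which share the unstressed arrays, and rrp41 in both that end with H2O2. Each difference uses 1 WT array per condition, whose own spread was not measured. None of the 3 counts is above the share of all probe sets, so they are no result about these genes.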

How the results depend on the processing

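Direction and call stayed the same for all 37 named gene results, each a gene in 1 comparison, when dim probe sets were left out or arrays were shifted until the probe sets outside S. pombe had 1 common median. Without an intensity trend 36 of them kept their call, and likewise 36 with the S. pombe probe sets alone quantile normalized. No gene changed sign. Leaving out 1 strain at a time gave 15 to 26 called genes at 40 °C (15 without slm9D), 12 to 26 after H2O2 (14 without hip1D and 12 without slm9D), and 22 to 30 after both stresses. It gave 3 to 23 for both stresses against H2O2 alone (23 without WT, 5 without hip1D and 3 without slm9D), and 4 to 23 for both against 40 °C alone (6 without hip1D and 4 without slm9D). Mutants against WT gave 10 without hip1D and 11 without slm9D. These fits have fewer arrays, and the share of all probe sets called moved in the same direction in each. For the stress comparisons it was lowest without slm9D and highest without WT. In the order above it was 21.4% to 74.7%, 14.2% to 72.4%, 35.3% to 79.0%, 7.03% to 62.6% and 13.5% to 73.7%. For mutants against WT it was 29.8% without hip1D and 30.4% without slm9D. With no replicate block, 5 genes were called for both stresses against H2O2, 6 for both against 40 °C, and 1 for mutants against WT, which was higher. The share of all probe sets called was 15.6%, 22.4% and 13.2% in the same order. Without the block, 10 of the 28 named results so fitted lost their call, among them rrp41 (adjusted p = 0.102) and nop10 (0.231) after H2O2. Leaving out 1 condition gave 13 to 18 lower and 2 to 4 higher genes for mutants against WT, where 43.4% to 48.0% of all probe sets were called. Of its 9 named results, 2 lost their call without 40 °C, 1 without H2O2 and 1 without both stresses. All 9 kept it without the unstressed arrays. Without an intensity trend 7 genes differed in the response at 40 °C and 4 in that to both stresses, where 37.5% and 40.8% of all probe sets did. The cause of these shifts was not tested. Leaving out a strain in the fits within conditions and of responses leaves 0 residual degrees of freedom, so only medians were computed. Leaving out genes whose RefSeq product names another function was not run.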

Other observations

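Related genes outside the 30 were also compared between the HIRA mutants and WT. Of 29 other ribosome biogenesis genes, left after dim1 and lsg1 were set aside, 18 were lower and 0 higher in the mutants over all conditions, with a median log2 difference of -0.19 (limma, adjusted p under 0.05). With both kept, 19 of 31 were lower and 1 higher. Of all probe sets, 28.7% were lower and 25.3% higher. The helicase gene dbp3 was the lowest of the list, at -0.88 ± 0.09 (SE). In the difference of responses, 8 of the 29 genes had a higher and 1 a lower response at 40 °C in the mutants, where 22.7% and 18.0% of all probe sets did. After H2O2 alone 2 were higher and 7 lower, against 31.0% and 16.3% of all, and after both stresses 10 and 1, against 26.8% and 19.2%.

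RNA polymerase I and its factors had 8 of 15 lower and 1 higher in the mutants, against 28.7% and 25.3% of all probe sets. The median was -0.17. rpa49, a polymerase subunit gene, was at -0.44 ± 0.06. The gene called higher was rrn7, of the core promoter factor, at 0.37 ± 0.14 (adjusted p = 0.0456). After H2O2 alone rrn7 averaged log2 9.85 in the mutants and 8.85 on the WT array, a difference of 0.996 ± 0.072, measured against the WT array with the lowest overall median. Its difference was smaller in the other conditions, at 0.39 when unstressed, 0.17 after the priming stress alone and -0.06 after both stresses. The mean of rrn7 over all conditions was therefore raised by the arrays after H2O2 alone. Ribosomal protein genes had 41 of 120 lower and 2 higher in the mutants, against 28.7% and 25.3% of all probe sets. Their median was -0.04.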
